A study of Mus musculus with 24 samples.

Results

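The SOX, T-box and GATA genes encode transcription factors that were followed here across 8 groups of mouse intestinal stromal cells. The genes were taken by symbol, as Sox, Tbx or Gata followed by a number, and 38 of the 54418 genes in the count file fit that rule: 19 SOX, 13 T-box and 6 GATA genes. No measured value entered that rule, but it was chosen with earlier results of these data known. All cells were sorted as negative for Epcam, a surface protein of epithelium, and CD45, a surface protein of leukocytes. The donor animals were C57Bl6 mice aged 8 to 12 weeks, and they carried a GFP transgene reporting Rspo3, the gene of R-spondin 3, a secreted protein that strengthens Wnt signals. How that transgene was made is not stated in these sources. The groups were colonic CD31+ Rspo3+, CD31+ Rspo3-, CD31- Rspo3+ and CD31- Rspo3- cells and the same 4 combinations from the small intestine, with 3 libraries each. CD31 is an endothelial surface protein encoded by Pecam1.

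SOX proteins bind and bend DNA through an HMG box, T-box proteins bind through the T-box domain, and GATA proteins bind GATA motifs through zinc fingers. In mice the SOXF group (Sox7, Sox17 and Sox18) acts in endothelium, where Sox18 switches on the lymphatic regulator Prox1 in the embryo and Sox17 is known for arteries. Sox10 marks enteric glia, Gata4 and Gata6 are known for the intestinal epithelium, and Tbx2 and Tbx3 are mostly repressors of transcription in developing mesenchyme.

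Levels are CPM, read counts scaled to library size by TMM factors, and compare 1 gene between libraries, while TPM values, which allow for transcript length, compare genes with each other. A library held 8462041 to 29214487 estimated counts, with a median of 17881736. Differences were tested with edgeR's quasi-likelihood test over 19050 genes, and a gene was called at a Benjamini-Hochberg adjusted p under 0.05. Nothing in the labels ties the 3 libraries of a group to different animals. The p-values therefore cover library-to-library spread, part or all of which may be technical. In such bulk samples, fewer cells of a type and less RNA per cell cannot be told apart. Library numbers follow column order and only name a library. Pecam1 was at 347 to 1486 CPM in CD31+ libraries, against 8.18 to 43.9 CPM in CD31- libraries, and Rspo3 at 139 to 449.9 CPM in Rspo3+ libraries, against 11.1 to 24.1 CPM in the Rspo3- libraries. A pair of colonic libraries stood apart. CD31- Rspo3+ library 3 held a summed 25224 CPM of 9 leukocyte markers, against 1278 and 1035 CPM in the other libraries of its group. CD31+ Rspo3- library 3 held 8752 CPM of 6 fibroblast markers, against 1322 and 1725 CPM. Their part in the results was examined by leaving both out, a choice made after the data were seen, and a colonic call that was lost without them is named as such.

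Of the 38 genes, 25 had enough counts to be tested. Of these, 18 reached 5 CPM in a group mean and were called in at least 1 of 12 pairwise comparisons, and their values are given by library below. By length-scaled level the leading gene differed between fractions. Sox18 (353 ± 44.1 TPM) and Tbx1 (255 ± 15.8 TPM) led in colonic CD31+ Rspo3+ cells, against Sox17 (491 ± 111 TPM) and Sox18 (428 ± 115 TPM) in CD31+ Rspo3- cells. Small intestinal CD31+ Rspo3+ cells were led by Tbx1 (346 ± 43.2 TPM) and Sox18 (229 ± 23.9 TPM), against Sox17 (357 ± 18.8 TPM) and Sox18 (299 ± 130.1 TPM) in CD31+ Rspo3- cells. Among CD31- cells, the highest was Sox9 (31.2 ± 8.32 TPM) in colonic Rspo3+ cells, against Tbx2 (51.6 ± 7.24 TPM) in colonic Rspo3- cells. In small intestinal CD31- cells it was Sox5 (20.3 ± 2.06 TPM) in the Rspo3+ fraction, next to Sox9 (18.1 ± 0.920 TPM), against Tbx2 (35.1 ± 6.58 TPM) in the Rspo3- fraction, next to Tbx3 (34.1 ± 0.626 TPM). Next to Tbx2 in colonic CD31- Rspo3- cells were Sox4 (47.9 ± 3.06 TPM) and Sox6 (45.3 ± 12.9 TPM), with overlapping library ranges. The ranges also overlapped in each of these small intestinal CD31- pairs, and for Sox17 and Sox18 in CD31+ Rspo3- cells of both tissues (values are means ± SD, n = 3).

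**Figure D1:**
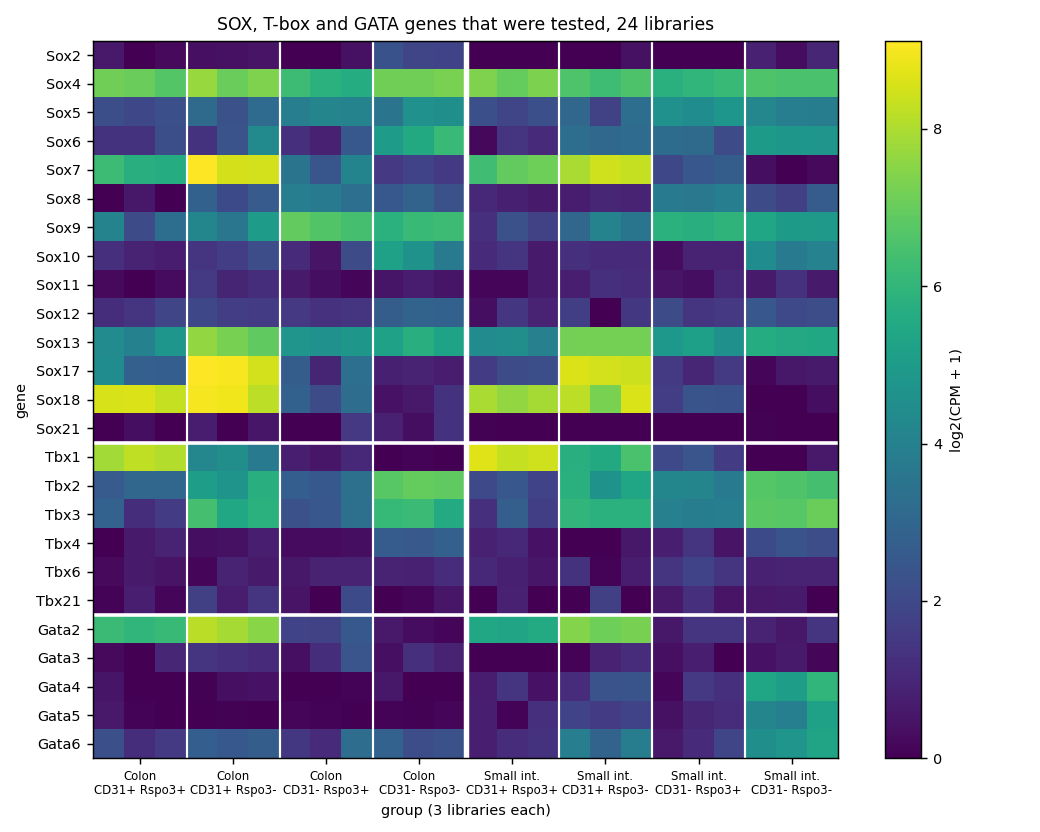
Levels of the 25 tested SOX, T-box and GATA genes as log2(CPM + 1) (color) in 24 libraries, in columns by group with colon left of small intestine and Rspo3+ left of Rspo3-. Sox7, Sox17, Sox18, Tbx1 and Gata2 are bright in CD31+ columns, and Gata4 and Gata5 stand out in the 3 small intestinal CD31- Rspo3- columns.

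Between Rspo3+ and Rspo3- cells, more of the tested genes were called lower than higher in every comparison. In colonic CD31+ cells, 1 of 25 higher (9.52% of all genes) and 8 of 25 lower (13.6% of all genes) were called. In small intestinal CD31+ cells the counts were 2 of 25 higher (9.23% of all genes) and 10 of 25 lower (10.8% of all genes). Colonic CD31- cells gave 5 of 25 higher (4.8% of all genes) and 8 of 25 lower (4.34% of all genes), and small intestinal CD31- cells 5 of 25 higher (16.1% of all genes) and 10 of 25 lower (14.3% of all genes). The median log2 fold change over the 25 genes was -1.34, -1.80, -0.36 and -0.59 in these comparisons, against -0.05, 0, 0 and 0.11 over all genes. Lower calls made up 32% to 40% of the 25 genes, against 4.34% to 14.3% of all genes, and higher calls 4% to 20%, against 4.8% to 16.1%. Tbx1 was higher in all 4 comparisons, and Sox13, Tbx2 and Tbx3 were lower in all 4. How many of all genes were called in all 4 was not counted. These comparisons share no library but come from the same fit of all 24 libraries. Some CD31- calls of Sox13 and Tbx1 were lost under alternatives, as given below. With DESeq2's size factors the median over all genes in small intestinal CD31- cells was 0 in place of 0.11. Without both colonic libraries that stand apart, 9 of the 25 genes were called in either direction in colonic CD31+ cells and 12 in colonic CD31- cells. With them the counts were 9 (23.1% of all genes) and 13 (9.14% of all genes). When only the compared libraries entered the fit, the colonic CD31- count was 8, beside 969 of all genes.

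**Figure D2:**
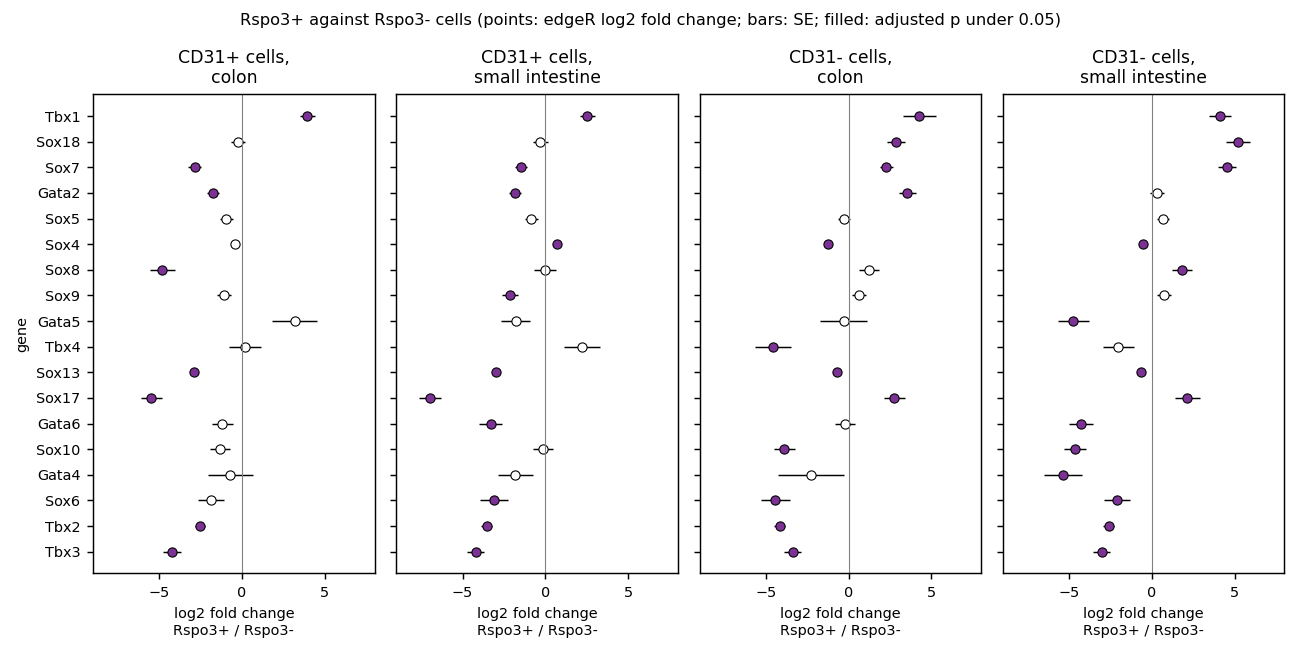
Log2 fold change of Rspo3+ over Rspo3- cells (x axis, SE as bars, n = 3 libraries a group) for 18 genes (y axis) in the 4 combinations of CD31 and tissue. Filled points had an adjusted p under 0.05. Sox7, Sox17 and Gata2 lie left of 0 in CD31+ cells and Tbx2 and Tbx3 lie left of 0 in all 4 panels.

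The SOXF genes differed among themselves in CD31+ cells: Sox17 and, by less, Sox7 were lower in the Rspo3+ fraction, and the Sox18 difference did not pass the test. Sox17 (ENSMUSG00000025902, chromosome 1, 4490931 to 4497354) had 20.4, 5.88 and 5.69 CPM in colonic CD31+ Rspo3+ libraries, against 555, 522 and 361 CPM in CD31+ Rspo3- libraries (log2 fold change -5.49 ± 0.62 SE, adjusted p = 1.63e-06). The small intestinal fractions had 1.97, 3.37 and 3.56 CPM in CD31+ Rspo3+ libraries, against 394, 362 and 342 CPM in CD31+ Rspo3- libraries (log2 fold change -6.97 ± 0.68 SE, adjusted p = 2.56e-07). Every Rspo3+ library lay below every Rspo3- library, and the ratio of means was 45-fold lower in the colon and 123-fold lower in the small intestine.

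Sox7 (ENSMUSG00000063060, chromosome 14, 63943673 to 63950732) had 74.7, 51.1 and 49 CPM in colonic CD31+ Rspo3+ libraries, against 551, 371 and 359.6 CPM in CD31+ Rspo3- libraries (log2 fold change -2.88 ± 0.38 SE, adjusted p = 1.07e-05). Small intestinal CD31+ cells had 79.1, 119.6 and 137 CPM in Rspo3+ libraries, against 249, 349 and 319 CPM in the Rspo3- libraries (log2 fold change -1.45 ± 0.36 SE, adjusted p = 0.00614). The groups did not overlap in either tissue. Sox18 (ENSMUSG00000046470, chromosome 2, 181669836 to 181671640), which acts upstream of Prox1 in the mouse embryo, had 374, 394 and 316 CPM in colonic CD31+ Rspo3+ libraries, against 506, 489 and 297 CPM in CD31+ Rspo3- libraries (log2 fold change -0.25 ± 0.42 SE, adjusted p = 0.730). Small intestinal CD31+ cells had 248, 199.9 and 235 CPM in Rspo3+ libraries, against 298, 155 and 387 CPM in the Rspo3- libraries (log2 fold change -0.30 ± 0.43 SE, adjusted p = 0.694). Both pairs of groups overlapped. The sign of the small intestinal value rested on Rspo3- library 3, without which it was 0.025.

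As a share of the summed TPM of the 3 SOXF genes, Sox18 made up 87.1%, 92.9% and 91.7% in colonic CD31+ Rspo3+ libraries, against 37.7%, 40.7% and 35.7% in CD31+ Rspo3- libraries. Its small intestinal share was 86.4%, 77.3% and 77.7% in CD31+ Rspo3+ libraries, against 38.7%, 23.5% and 45.7% in CD31+ Rspo3- libraries. Sox17 made up 0.803% to 4.73% of the sum in the 6 CD31+ Rspo3+ libraries, against 36.7% to 51.9% in the 6 CD31+ Rspo3- libraries. Sox7 held 14.5% to 24.6% in those 6 CD31+ Rspo3- libraries. Sox18 was thus the main SOXF transcript in every CD31+ Rspo3+ library, while CD31+ Rspo3- libraries divided the sum among all 3 genes.

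Beside these genes, lymphatic and blood endothelial markers also differed between the CD31+ fractions, in opposite directions. The sum of 8 lymphatic markers was 39959 to 50702 CPM in colonic CD31+ Rspo3+ libraries, against 1911 to 2410.4 CPM in CD31+ Rspo3- libraries. In small intestinal CD31+ cells that sum was 29972 to 34017 CPM in Rspo3+ libraries, against 3115 to 6008 CPM in the Rspo3- libraries. The sum of 10 blood endothelial markers went the other way, with 919 to 1309 CPM in colonic and 919 to 990.3 CPM in small intestinal CD31+ Rspo3+ libraries, against 17773 to 23173 CPM and 15212 to 19088 CPM in CD31+ Rspo3- libraries. None of these 18 markers was at 0 in all libraries of a CD31+ group. Their part in the differences was not tested.

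**Figure D3:**
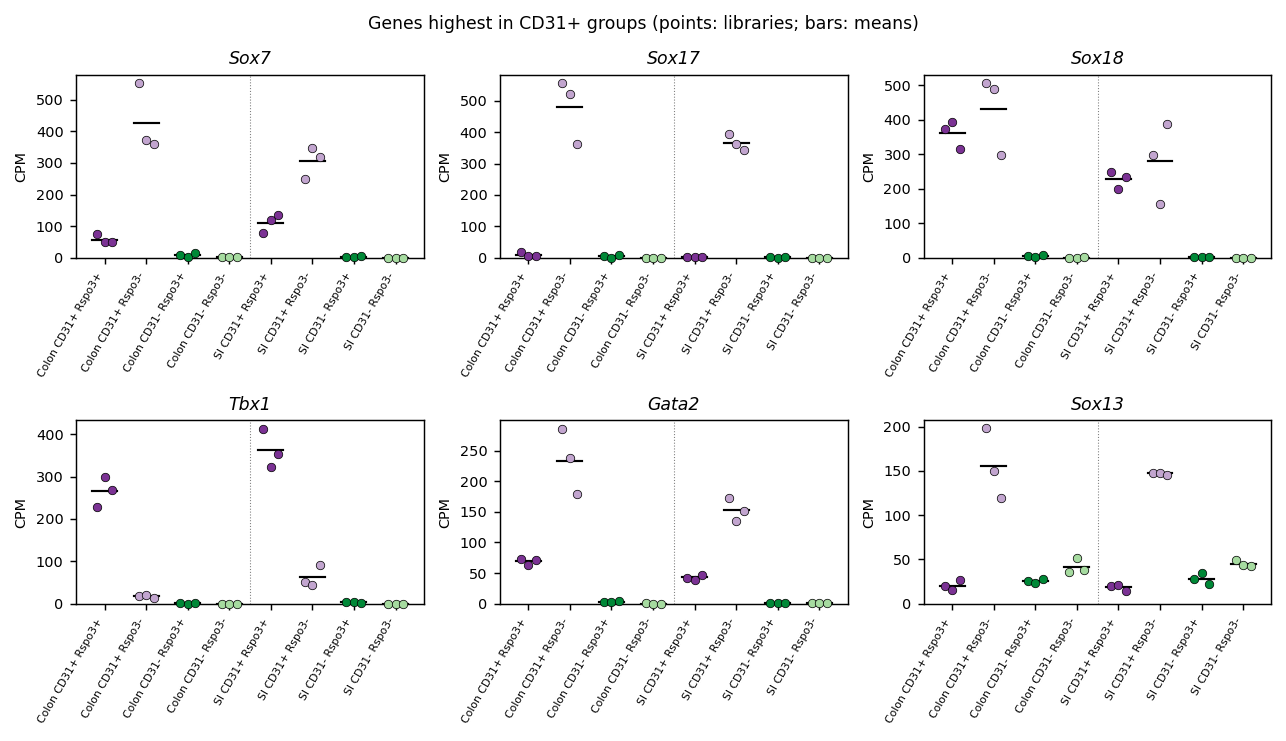
CPM (y axis, linear from 0) of 6 genes in the 8 groups (x axis, colon left of small intestine), with 1 point per library and bars at group means. Sox17 lies at 1.97 to 20.4 CPM in CD31+ Rspo3+ libraries and at 342 to 555 CPM in CD31+ Rspo3- libraries, while the points of Sox18 overlap between these fractions and Tbx1 is high in CD31+ Rspo3+ cells.

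Tbx1 and Gata2 were higher in CD31+ than in CD31- cells, and between the CD31+ fractions they differed in opposite directions. Tbx1 (ENSMUSG00000009097, chromosome 16, 18580979 to 18590671), which mice need for normal lymphatic vessels, had 228, 299 and 269 CPM in colonic CD31+ Rspo3+ libraries, against 17.7, 21.5 and 12.9 CPM in CD31+ Rspo3- libraries (log2 fold change 3.93 ± 0.45 SE, adjusted p = 2.16e-06). In small intestinal CD31+ cells Tbx1 had 412, 322 and 354 CPM in Rspo3+ libraries, against 51.2, 45.4 and 90.5 CPM in the Rspo3- libraries (log2 fold change 2.54 ± 0.43 SE, adjusted p = 0.000178). It was higher in every Rspo3+ library of both tissues. Gata2 (ENSMUSG00000015053, chromosome 6, 88193891 to 88207032), an endothelial and blood-cell factor that also acts in lymphatic valves, had 72.9, 62.7 and 72 CPM in colonic CD31+ Rspo3+ libraries, against 285, 237 and 179 CPM in CD31+ Rspo3- libraries (log2 fold change -1.76 ± 0.34 SE, adjusted p = 0.000786). Its small intestinal levels were 42.4, 39.6 and 46.6 CPM in CD31+ Rspo3+ libraries, against 172, 136 and 151 CPM in CD31+ Rspo3- libraries (log2 fold change -1.84 ± 0.35 SE, adjusted p = 0.000581). The groups did not overlap. Mast cells also use Gata2, and their 6 markers summed to 2.22 to 4.23 CPM in CD31+ Rspo3+ libraries, against 36.9 to 112 CPM in CD31+ Rspo3- libraries. In the CD31+ Rspo3- groups of both tissues, 5 of those 6 markers were at 0 in all libraries, and the sum was that of Hdc, the gene of histidine decarboxylase.

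Sox13 (ENSMUSG00000070643, chromosome 1, 133382303 to 133424377), a SOXD protein, also separated the CD31+ fractions. It had 19.9, 15 and 26.5 CPM in colonic CD31+ Rspo3+ libraries, against 198, 150.3 and 119 CPM in CD31+ Rspo3- libraries (log2 fold change -2.93 ± 0.23 SE, adjusted p = 1.53e-08). The small intestinal values were 19.97, 21.6 and 14.8 CPM in CD31+ Rspo3+ libraries, against 148, 148 and 146 CPM in CD31+ Rspo3- libraries (log2 fold change -2.96 ± 0.23 SE, adjusted p = 1.42e-08). Those 6 small intestinal libraries were separated by a wide gap with little spread within each group.

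Sox13 also differed in CD31- cells, by less. It had 25.7, 23.6 and 27.7 CPM in colonic CD31- Rspo3+ libraries, against 36.1, 51.5 and 37.7 CPM in CD31- Rspo3- libraries (log2 fold change -0.70 ± 0.21 SE, adjusted p = 0.0446). That call was lost without colonic CD31- Rspo3+ library 1, 2 or 3 or colonic CD31- Rspo3- library 2 or 3 (adjusted p from 0.0510 to 0.173), without a filter on low counts (adjusted p = 0.0582) and when only the compared libraries entered the fit (adjusted p = 0.0933). The small intestinal CD31- cells had 28, 34.8 and 22.6 CPM in Rspo3+ libraries, against 49.3, 44.1 and 42.9 CPM in the Rspo3- libraries (log2 fold change -0.67 ± 0.21 SE, adjusted p = 0.0206), a call lost without small intestinal CD31- Rspo3+ library 1 (adjusted p = 0.0586). Over all its alternatives the adjusted p ran from 0.0208 to 0.173 in the colon and from 0.00232 to 0.0586 in the small intestine. Across CD31, Sox13 in Rspo3- cells was higher in CD31+ than in CD31- libraries of the colon (log2 fold change 1.90 ± 0.22 SE, adjusted p = 1.54e-06) and of the small intestine (with a log2 fold change of 1.70 ± 0.22 SE, adjusted p = 3.83e-06). Small intestinal Rspo3+ cells went the other way, and Sox13 was lower in CD31+ than in CD31- libraries (log2 fold change -0.59 ± 0.21 SE, adjusted p = 0.0356), a call lost without small intestinal CD31+ Rspo3+ library 1 or 3 or small intestinal CD31- Rspo3+ library 1, 2 or 3 (adjusted p from 0.0523 to 0.335), without a filter on low counts (adjusted p = 0.0677) and when only the compared libraries entered the fit (adjusted p = 0.0708).

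Promoters are shown for Tbx1, Gata2 and Sox13 because these genes separated the CD31+ fractions in opposite directions and have RefSeq entries in the table used. Each run gives the 250 bases before an annotated start on GRCm38.p6, 5′ to 3′ on the gene's own strand, with GC boxes (GGGCGG or its reverse complement) and CCAAT boxes in capitals. Coordinates follow each name, with the strand. The first bases transcribed from the first Tbx1 start listed were in no GENCODE transcript of Tbx1. Those from every other start were in a GENCODE transcript of its gene.
Tbx1 (chr16:18588900-18589149, - strand): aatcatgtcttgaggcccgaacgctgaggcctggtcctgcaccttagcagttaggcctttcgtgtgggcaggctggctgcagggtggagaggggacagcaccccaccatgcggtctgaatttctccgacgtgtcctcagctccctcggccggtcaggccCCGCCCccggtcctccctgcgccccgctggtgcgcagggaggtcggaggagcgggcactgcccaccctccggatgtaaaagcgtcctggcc
Tbx1 (chr16:18590672-18590921, - strand): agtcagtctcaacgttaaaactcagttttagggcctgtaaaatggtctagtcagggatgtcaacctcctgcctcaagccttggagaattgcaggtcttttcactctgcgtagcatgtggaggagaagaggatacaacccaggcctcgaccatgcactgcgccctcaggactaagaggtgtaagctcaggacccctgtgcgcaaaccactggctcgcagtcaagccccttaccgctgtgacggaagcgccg
Gata2 (chr6:88193641-88193890, + strand): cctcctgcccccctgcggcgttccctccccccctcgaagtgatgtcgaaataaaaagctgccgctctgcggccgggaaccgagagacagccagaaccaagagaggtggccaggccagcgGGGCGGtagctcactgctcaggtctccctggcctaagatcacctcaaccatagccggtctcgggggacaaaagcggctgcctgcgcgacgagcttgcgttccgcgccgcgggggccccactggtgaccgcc
Gata2 (chr6:88198414-88198663, + strand): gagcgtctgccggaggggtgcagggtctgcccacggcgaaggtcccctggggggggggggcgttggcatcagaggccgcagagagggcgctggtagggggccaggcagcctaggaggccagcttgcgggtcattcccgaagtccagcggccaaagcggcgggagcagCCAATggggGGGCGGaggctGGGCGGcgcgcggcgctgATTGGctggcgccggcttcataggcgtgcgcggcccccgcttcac
Sox13 (chr1:133424213-133424462, - strand): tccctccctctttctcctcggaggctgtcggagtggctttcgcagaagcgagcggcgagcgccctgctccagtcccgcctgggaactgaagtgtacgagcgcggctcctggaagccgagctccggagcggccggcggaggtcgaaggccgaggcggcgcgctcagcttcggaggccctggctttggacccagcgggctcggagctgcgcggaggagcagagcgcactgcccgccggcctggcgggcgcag

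Both strands of all 32851 RefSeq promoter windows of that length were searched for the SOX motif ACAAT, the GATA motif AGATAA, the T-box motif GGTGTGA and the ETS motif GGAAGT. The GC box GGGCGG, the CCAAT box and the TATA box, spelled TATAAA, were searched too. These motifs do not overlap each other's letters in the hits shown. None of the first 4 motifs was in these 5 windows, against 27.7%, 9.99%, 3.33% and 19.7% of all promoters. GGGCGG was in 3 of the 5 windows, at 2 places in the second Gata2 window and at 1 place in each of the others, against 32.7% of all promoters. CCAAT was in the second Gata2 window on each strand, against 33.8% of all promoters, and TATAAA was in none, against 12.4%. The last 3 motifs were added after the sequences were seen. A match describes letters and is not shown to be a bound site.

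CD31 itself divided the SOXF genes, Tbx1 and Gata2 by large ratios. Of the 25 tested genes, colonic CD31+ cells gave 5 of 25 higher (14.9% of all genes) and 3 of 25 lower (18.2% of all genes) among Rspo3+ cells, and 6 of 25 higher (16.1% of all genes) and 6 of 25 lower (16.4% of all genes) among Rspo3- cells. In the small intestine, CD31+ cells gave 5 of 25 higher (16.9% of all genes) and 8 of 25 lower (19.6% of all genes) among Rspo3+ cells, and 6 of 25 higher (20.1% of all genes) and 8 of 25 lower (21.6% of all genes) among Rspo3- cells. As shares of the 25 genes these were 12% to 32%, against 14.9% to 21.6% of all genes. Sox7, Sox18, Gata2 and Tbx1 were higher in CD31+ cells in all 4 comparisons. Sox17 was called among Rspo3- cells, where its CD31+ mean was 640.5 times the CD31- mean in the colon (adjusted p = 1.57e-08) and 919 times in the small intestine (adjusted p = 1.02e-08). Among Rspo3+ cells its difference did not pass in the colon (log2 fold change 1.05 ± 0.55 SE, adjusted p = 0.156) or the small intestine (with a log2 fold change of 0.86 ± 0.61 SE, adjusted p = 0.307). The colonic value passed without colonic CD31- Rspo3+ library 3 (adjusted p = 0.0307) and without both colon libraries that stand apart (adjusted p = 0.0306). Over its alternatives the adjusted p ran from 0.0306 to 0.853.

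The difference between CD31+ and CD31- cells in their Rspo3 contrast was itself tested, as the mean of both tissues. Of the 25 genes, 4 of 25 higher (13.1% of all genes) and 9 of 25 lower (17.1% of all genes) were called. The interaction was -8.68 ± 0.65 SE, adjusted p = 4.27e-09 for Sox17, -5.57 ± 0.43 SE, adjusted p = 5.74e-09 for Sox7 and -4.30 ± 0.56 SE, adjusted p = 5.87e-06 for Sox18, on the log2 scale. It was -3.73 ± 0.41 SE, adjusted p = 8.27e-07 for Gata2 and -2.26 ± 0.22 SE, adjusted p = 1.12e-07 for Sox13. All 5 were called under every alternative run, and so were Sox8 (-3.96 ± 0.67 SE, adjusted p = 0.000119), Sox9 (-2.29 ± 0.45 SE, adjusted p = 0.000529), Sox10 (3.54 ± 0.61 SE, adjusted p = 0.000149), Sox4 (1.04 ± 0.18 SE, adjusted p = 0.000188) and Tbx4 (4.49 ± 1.01 SE, adjusted p = 0.00188). The interactions of Sox5 (-1.09 ± 0.38 SE, adjusted p = 0.0342) and Gata5 (3.23 ± 1.18 SE, adjusted p = 0.0447) were not stable: adjusted p ran from 0.00473 to 0.0925 for Sox5 and from 0.0134 to 0.284 for Gata5, and leaving out 1 library ended the Sox5 call for 16 and the Gata5 call for 13 of the 24 libraries.

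On the CD31- side, the SOXF genes, Tbx1 and, in the colon, Gata2 were higher in Rspo3+ than in Rspo3- cells, at low levels. Sox7 had 10.4, 4.46 and 16.3 CPM in colonic CD31- Rspo3+ libraries, against 1.86, 2.57 and 1.96 CPM in CD31- Rspo3- libraries (log2 fold change 2.28 ± 0.40 SE, adjusted p = 0.00103). Small intestinal CD31- cells had 2.95, 4.56 and 5.44 CPM in Rspo3+ libraries, against 0.277, 0 and 0.162 CPM in the Rspo3- libraries (log2 fold change 4.54 ± 0.55 SE, adjusted p = 4.61e-06). Groups did not overlap in either tissue, and the colonic call was lost when only the compared libraries entered the fit (adjusted p = 0.0600).

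Sox18 had 6.14, 3.28 and 8.66 CPM in colonic CD31- Rspo3+ libraries, against 0.371, 0.550 and 1.53 CPM in CD31- Rspo3- libraries (log2 fold change 2.86 ± 0.53 SE, adjusted p = 0.00161), a call lost when only the compared libraries entered the fit (adjusted p = 0.0672). Its small intestinal CD31- levels were 2.14, 4.18 and 3.89 CPM in Rspo3+ libraries, against 0, 0 and 0.270 CPM in the Rspo3- libraries (log2 fold change 5.20 ± 0.75 SE, adjusted p = 3.26e-05). Sox17 had 5.46, 0.918 and 9.04 CPM in colonic CD31- Rspo3+ libraries, against 0.742, 0.880 and 0.621 CPM in CD31- Rspo3- libraries (log2 fold change 2.76 ± 0.65 SE, adjusted p = 0.00972). The colonic Sox17 call was lost without colonic CD31- Rspo3+ library 3 (adjusted p = 0.0608), when only the compared libraries entered the fit (adjusted p = 0.118) and without both colon libraries that stand apart (adjusted p = 0.0631). Small intestinal CD31- cells had 1.9, 0.965 and 1.9 CPM of Sox17 in Rspo3+ libraries, against 0.104, 0.496 and 0.595 CPM in the Rspo3- libraries (log2 fold change 2.14 ± 0.76 SE, adjusted p = 0.0386), and that call was lost without small intestinal CD31- Rspo3+ library 1, 2 or 3 or small intestinal CD31- Rspo3- library 1 or 2 (adjusted p from 0.0555 to 0.205), with DESeq2's size factors (adjusted p = 0.0599) and when only the compared libraries entered the fit (adjusted p = 0.0691). No Rspo3+ library overlapped the Rspo3- libraries in these 4 comparisons, but the Sox17 calls rested on few counts.

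Tbx1 in CD31- cells had 0.683, 0.459 and 1.01 CPM in colonic Rspo3+ libraries, against 0, 0.0733 and 0 CPM in the Rspo3- libraries, a ratio of 23.4 with a 95% counting interval of 5.93 to 202 (adjusted p = 0.0112). That call was lost when only the compared libraries entered the fit (adjusted p = 0.0895). In small intestinal CD31- cells it had 3.03, 4.29 and 2.04 CPM in Rspo3+ libraries, against 0, 0 and 0.541 CPM in the Rspo3- libraries (log2 fold change 4.11 ± 0.65 SE, adjusted p = 8.03e-05). Gata2 had 2.54, 2.43 and 4.68 CPM in colonic CD31- Rspo3+ libraries, against 0.557, 0.220 and 0.0956 CPM in CD31- Rspo3- libraries (log2 fold change 3.55 ± 0.50 SE, adjusted p = 0.000128). Without both colonic libraries that stand apart the value was a log2 fold change of 3.17, adjusted p = 0.000438. Small intestinal CD31- libraries overlapped for Gata2, at 0.485, 1.61 and 1.65 CPM in Rspo3+ and 0.831, 0.496 and 1.57 CPM in Rspo3- cells, and no difference was called.

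Endothelial markers were also present in CD31- Rspo3+ cells. As a percent of the mean CPM of CD31+ Rspo3+ cells, the colonic CD31- Rspo3+ cells held 0.271% of Tbx1, 1.67% of Sox18, 4.65% of Gata2, 17.9% of Sox7 and 48.3% of Sox17. The same percent ran from 0.214% to 51.0% over 8 lymphatic markers (median 0.388%) and from 1.58% to 82.1% over 7 pan-endothelial markers (median 3.96%). Small intestinal CD31- Rspo3+ cells held 0.861% of Tbx1, 1.49% of Sox18, 2.91% of Gata2, 3.86% of Sox7 and 53.5% of Sox17. There the lymphatic markers ran from 0.906% to 47.3% (median 1.13%) and the pan-endothelial markers from 1.22% to 29.7% (median 2.14%). Beside Sox17, which was at 10.7 CPM in colonic and 2.97 CPM in small intestinal CD31+ Rspo3+ cells, the genes of these lists above 20% in both tissues were Tek (82.1% in the colon and 29.6% in the small intestine), Pdpn (51.0% and 47.3%) and Esam (27.1% and 29.7%). The blood endothelial markers were not taken as percents. Their sum was 1000 to 1122 CPM in colonic CD31- Rspo3+ libraries, against 919 to 1309 CPM in CD31+ Rspo3+ libraries. In the small intestine it was 474 to 563 CPM, against 919 to 990.3 CPM. The CD31- Rspo3- libraries also held 553 to 617 CPM of that sum in the colon and 335 to 375 CPM in the small intestine. Which of the 10 markers made up the blood endothelial sum in CD31- cells is not given here, so that sum does not measure their endothelial content. The pan-endothelial sum was 289 to 381 CPM in colonic and 95.6 to 122 CPM in small intestinal CD31- Rspo3+ libraries, against 73.7 to 108 CPM and 39.9 to 43.8 CPM in CD31- Rspo3- libraries. Most of that sum in CD31- Rspo3+ cells was Tek, with a mean of 263 CPM in the colon and 67.5 CPM in the small intestine. The part of the pan-endothelial sum in these differences was not tested.

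Tbx2 and Tbx3 were lower in Rspo3+ cells whatever the tissue and the CD31 sign. Tbx2 (ENSMUSG00000000093, chromosome 11, 85832551 to 85841948), a repressor of the cell cycle inhibitor p21 among other genes, had 5.11, 7.1 and 7.1 CPM in colonic CD31+ Rspo3+ libraries, against 33.8, 25.6 and 51.8 CPM in CD31+ Rspo3- libraries (log2 fold change -2.53 ± 0.31 SE, adjusted p = 4.62e-06). In colonic CD31- cells it had 5.56, 4.72 and 9.29 CPM in Rspo3+ libraries, against 108, 123 and 119 CPM in the Rspo3- libraries (log2 fold change -4.15 ± 0.33 SE, adjusted p = 1.94e-07). Every Rspo3+ library lay below every Rspo3- library of its fraction. Small intestinal CD31+ cells had 3.03, 4.6 and 2.61 CPM in Rspo3+ libraries, against 54.6, 24.6 and 41 CPM in the Rspo3- libraries (log2 fold change -3.54 ± 0.33 SE, adjusted p = 1.59e-07). Their CD31- counterparts had 17, 16.6 and 12.5 CPM in Rspo3+ libraries, against 104, 95.9 and 84.7 CPM in the Rspo3- libraries (log2 fold change -2.62 ± 0.31 SE, adjusted p = 3.12e-06). Again no group overlapped.

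Tbx3 (ENSMUSG00000018604, chromosome 5, 119670669 to 119684724), the closest relative of Tbx2, had 6.37, 1.28 and 2.0 CPM in colonic CD31+ Rspo3+ libraries, against 85.1, 43.3 and 55 CPM in CD31+ Rspo3- libraries (log2 fold change -4.24 ± 0.52 SE, adjusted p = 4.93e-06). Colonic CD31- cells had 3.8, 4.59 and 9.36 CPM in Rspo3+ libraries, against 67.3, 73.7 and 46.9 CPM in the Rspo3- libraries (log2 fold change -3.39 ± 0.50 SE, adjusted p = 0.000225). Without both colonic libraries that stand apart these were log2 fold change -4.31, adjusted p = 4.95e-06 and log2 fold change -3.89, adjusted p = 0.000207. In CD31+ cells of the small intestine Tbx3 had 1.42, 5.7 and 2.25 CPM in Rspo3+ libraries, against 63.8, 56.2 and 55.4 CPM in the Rspo3- libraries (log2 fold change -4.21 ± 0.53 SE, adjusted p = 6.43e-06). The small intestinal CD31- cells had 14.7, 13.3 and 14 CPM in Rspo3+ libraries, against 110.1, 106 and 132 CPM in the Rspo3- libraries (log2 fold change -3.05 ± 0.49 SE, adjusted p = 8.95e-05). The groups were apart in all 4 comparisons.

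Across CD31, Tbx2 in Rspo3- cells was lower in CD31+ than in CD31- cells of the colon (log2 fold change -1.65 ± 0.30 SE, adjusted p = 0.000251) and of the small intestine (with a log2 fold change of -1.24 ± 0.29 SE, adjusted p = 0.00202). Tbx3 was at 61.1 ± 21.6 CPM in colonic CD31+ Rspo3- cells and 62.6 ± 14 CPM in CD31- Rspo3- cells (SD, n = 3 each), with overlapping libraries. Its small intestinal difference did not pass (log2 fold change -0.99 ± 0.45 SE, adjusted p = 0.0871), but did when only the compared libraries entered the fit (adjusted p = 0.00187). Among small intestinal Rspo3+ cells both were lower in CD31+ cells, Tbx2 with a log2 fold change of -2.16 ± 0.32 SE, adjusted p = 1.55e-05 and Tbx3 with a log2 fold change of -2.16 ± 0.50 SE, adjusted p = 0.00166. Mural cell markers also moved with the reporter in CD31+ cells: 6 smooth muscle markers summed to 147 to 256 CPM in colonic and 111 to 229 CPM in small intestinal CD31+ Rspo3+ libraries, against 617 to 1064 CPM and 546 to 1179 CPM in CD31+ Rspo3- libraries. The sum of 6 pericyte markers was 118 to 129 CPM in colonic CD31+ Rspo3+ libraries, against 504 to 859 CPM in CD31+ Rspo3- libraries, but overlapped in the small intestine (362 to 453 CPM against 308 to 466 CPM). In CD31- cells the smooth muscle sum was 504 to 767 CPM in colonic and 1102 to 1597 CPM in small intestinal Rspo3+ libraries, against 3009.9 to 4366 CPM and 1325 to 2037 CPM in the Rspo3- libraries, with overlap in the small intestine. No marker of either list was at 0 in all libraries of a group, and their part in the Tbx2 and Tbx3 differences was not tested.

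Each of the pair has a T-box neighbour on its chromosome. Tbx4 (ENSMUSG00000000094, chromosome 11, 85886422 to 85916097), known from lung and hindlimb mesenchyme, begins 44.5 kb after the end of Tbx2. It had 0.195, 0.197 and 0.253 CPM in colonic CD31- Rspo3+ libraries, against 5.26, 4.8 and 5.97 CPM in CD31- Rspo3- libraries (log2 fold change -4.58 ± 1.08 SE, adjusted p = 0.0102). In small intestinal CD31- cells it had 0.687, 1.56 and 0.389 CPM in Rspo3+ libraries, against 3.15, 4.21 and 3.41 CPM in the Rspo3- libraries, a difference that did not pass (log2 fold change -2.03 ± 0.93 SE, adjusted p = 0.108). It passed with DESeq2 (adjusted p = 0.0219) and when only the compared libraries entered the fit (adjusted p = 0.0111), with adjusted p from 0.0111 to 0.248 over all alternatives. The CD31+ libraries held at most 1.04 CPM of Tbx4, and among Rspo3- cells it was lower in CD31+ than in CD31- libraries of the colon (log2 fold change -3.62 ± 1.00 SE, adjusted p = 0.00874) and of the small intestine (with a log2 fold change of -4.46 ± 1.10 SE, adjusted p = 0.00296). Tbx5 lies 147.9 kb from Tbx3 and stayed below the filter on low counts.

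**Figure D4:**
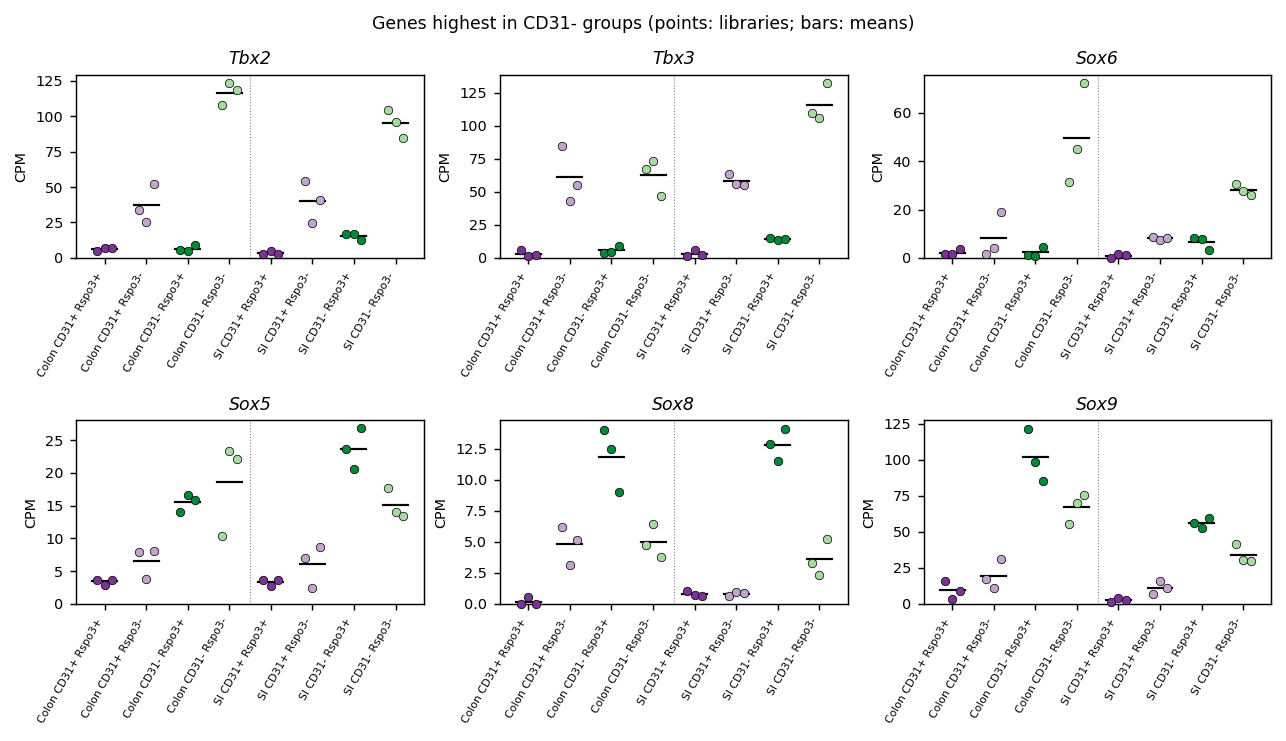
CPM (y axis, linear from 0) of Tbx2, Tbx3, Sox6, Sox5, Sox8 and Sox9 in the 8 groups (x axis, colon left of small intestine), with 1 point per library and bars at group means. Tbx2 and Tbx3 are low in all 4 Rspo3+ groups, Sox6 is highest in CD31- Rspo3- cells, and Sox8 is highest in CD31- Rspo3+ cells.

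Sox6 (ENSMUSG00000051910, chromosome 7, 115470872 to 116038796), a SOXD protein that lacks an activation domain of its own, was highest in CD31- Rspo3- cells. Colonic CD31- cells had 1.37, 0.787 and 4.68 CPM in Rspo3+ libraries, against 31.5, 45 and 72.2 CPM in the Rspo3- libraries (log2 fold change -4.42 ± 0.86 SE, adjusted p = 0.00239). Small intestinal CD31- cells had 8.32, 7.83 and 3.35 CPM in Rspo3+ libraries, against 30.4, 27.6 and 26.1 CPM in the Rspo3- libraries (log2 fold change -2.11 ± 0.77 SE, adjusted p = 0.0435). The groups were apart in both tissues, but the small intestinal call was lost without any 1 of the 6 libraries compared (adjusted p from 0.0701 to 0.130). In small intestinal CD31+ cells Sox6 had 0.138, 1.59 and 1.19 CPM in Rspo3+ libraries, against 8.79, 7.34 and 8.19 CPM in the Rspo3- libraries (log2 fold change -3.10 ± 0.85 SE, adjusted p = 0.0124), a call lost without small intestinal CD31+ Rspo3+ library 1 (adjusted p = 0.0621). The colonic CD31+ libraries overlapped, at 1.5, 1.53 and 3.57 CPM in Rspo3+ and 1.55, 4.0 and 19 CPM in Rspo3- cells (log2 fold change -1.89 ± 0.78 SE, adjusted p = 0.0893). Their difference passed without colonic CD31+ Rspo3- library 1 (adjusted p = 0.0364) and with DESeq2 (adjusted p = 0.0398), and adjusted p ran from 0.0364 to 0.845 over the alternatives. The 19.0 CPM came from the library with the high fibroblast sum.

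Sox6 is itself a marker of Pdgfra-high fibroblasts, which lie beneath the epithelium. The other 5 markers of these cells summed to 312 to 367 CPM in colonic CD31- Rspo3+ libraries, against 900.2 to 981 CPM in CD31- Rspo3- libraries. Their small intestinal CD31- sum overlapped, at 281 to 300.0 CPM in Rspo3+ and 257 to 329 CPM in the Rspo3- libraries. None of the 5 was at 0 in all libraries of these groups, and their part in the Sox6 difference was not tested. Across CD31, Sox6 was lower in CD31+ than in CD31- libraries of colonic Rspo3- cells (log2 fold change -2.59 ± 0.78 SE, adjusted p = 0.0153), a call lost without colonic CD31+ Rspo3- library 1 or 2 or colonic CD31- Rspo3- library 3 (adjusted p from 0.0552 to 0.0695) and when only the compared libraries entered the fit (adjusted p = 0.0572). It was also lower in CD31+ cells among small intestinal Rspo3+ cells (log2 fold change -2.79 ± 0.84 SE, adjusted p = 0.0128), a call lost without small intestinal CD31+ Rspo3+ library 1 (adjusted p = 0.0646).

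The third SOXD gene, Sox5 (ENSMUSG00000041540, chromosome 6, 143828425 to 144781977), partner of Sox6 in cartilage, was lower in CD31+ cells in all 4 comparisons, and edgeR called none of its pairwise Rspo3 differences. Among colonic Rspo3+ cells it had 3.61, 2.94 and 3.68 CPM in CD31+ libraries, against 14, 16.6 and 15.9 CPM in CD31- libraries. Colonic Rspo3- cells had 7.89, 3.76 and 8.07 CPM in CD31+ libraries, against 10.4, 23.4 and 22.1 CPM in CD31- libraries. Among small intestinal cells, the Rspo3+ fractions had 3.63, 2.76 and 3.67 CPM in CD31+ libraries, against 23.7, 20.7 and 26.8 CPM in CD31- libraries, and the Rspo3- fractions 7.02, 2.35 and 8.7 CPM in CD31+ libraries, against 17.7, 14 and 13.4 CPM in CD31- libraries. Every CD31+ library lay below every CD31- library of the same tissue. The CD31 difference was -2.18 ± 0.39 SE, adjusted p = 0.000206 in colonic Rspo3+ cells, -1.50 ± 0.38 SE, adjusted p = 0.00496 in colonic Rspo3- cells and -2.82 ± 0.40 SE, adjusted p = 1.12e-05 in small intestinal Rspo3+ cells (log2 fold changes). In small intestinal Rspo3- cells it was -1.32 ± 0.38 SE, adjusted p = 0.00895, a call lost when only the compared libraries entered the fit (adjusted p = 0.0562). The Rspo3 difference in CD31- cells did not pass in the colon (log2 fold change -0.27 ± 0.37 SE, adjusted p = 0.742) or the small intestine (with a log2 fold change of 0.66 ± 0.37 SE, adjusted p = 0.201). So the SOXD group divided: Sox13 was highest in CD31+ Rspo3- cells, Sox6 in CD31- Rspo3- cells and Sox5 in CD31- cells of either reporter sign.

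Of the SOXE genes, Sox9 was highest in CD31- cells and Sox8 in CD31- Rspo3+ cells. Sox9 (ENSMUSG00000000567, chromosome 11, 112782224 to 112787760), known from cartilage, intestinal crypts and fibroblasts, had 121, 98.7 and 85.1 CPM in colonic CD31- Rspo3+ libraries, against 55.7, 69.9 and 75.5 CPM in CD31- Rspo3- libraries, a difference that did not pass (log2 fold change 0.60 ± 0.43 SE, adjusted p = 0.445). CD31- cells of the small intestine had 56, 52.6 and 59.6 CPM in Rspo3+ libraries, against 41.3, 30.5 and 29.5 CPM in the Rspo3- libraries (log2 fold change 0.73 ± 0.43 SE, adjusted p = 0.219). The libraries did not overlap in either tissue. The small intestinal difference passed when only the compared libraries entered the fit (adjusted p = 0.0307), and its adjusted p ran from 0.0307 to 0.535. In those tissues' CD31- cells the epithelial marker sum was lower in the Rspo3+ libraries, at 134 to 1574 CPM in colonic and 158 to 364 CPM in small intestinal Rspo3+ libraries, against 1203 to 4101 CPM and 8461 to 14289 CPM in the Rspo3- libraries, with the colonic groups overlapping.

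CD31+ libraries held less Sox9. It had 15.8, 3.2 and 8.72 CPM in colonic CD31+ Rspo3+ libraries and 17, 11 and 30.8 CPM in CD31+ Rspo3- libraries, which overlapped (log2 fold change -1.09 ± 0.44 SE, adjusted p = 0.0834). That difference passed without colonic CD31+ Rspo3+ library 1 (adjusted p = 0.0160). In small intestinal CD31+ cells Sox9 had 1.33, 3.74 and 2.49 CPM in Rspo3+ libraries, against 6.96, 16 and 10.8 CPM in the Rspo3- libraries (log2 fold change -2.17 ± 0.48 SE, adjusted p = 0.00263), with no overlap. Between CD31+ and CD31- cells the log2 fold change was -3.46 ± 0.48 SE, adjusted p = 9.45e-06 in colonic Rspo3+ cells and -1.77 ± 0.44 SE, adjusted p = 0.00441 in colonic Rspo3- cells. It was -4.49 ± 0.51 SE, adjusted p = 6.83e-07 in small intestinal Rspo3+ cells and -1.59 ± 0.45 SE, adjusted p = 0.00732 in small intestinal Rspo3- cells.

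Sox8 (ENSMUSG00000024176, chromosome 17, 25565892 to 25570686), a relative of Sox9 with overlapping roles in mice, had 14, 12.5 and 9.04 CPM in colonic CD31- Rspo3+ libraries, against 4.7, 6.45 and 3.78 CPM in CD31- Rspo3- libraries (log2 fold change 1.25 ± 0.61 SE, adjusted p = 0.226). The groups were apart, and the difference passed with DESeq2 (adjusted p = 0.0154), with adjusted p from 0.0154 to 0.440 over its alternatives. Small intestinal CD31- cells had 12.9, 11.5 and 14.1 CPM in Rspo3+ libraries, against 3.25, 2.31 and 5.24 CPM in the Rspo3- libraries (log2 fold change 1.83 ± 0.62 SE, adjusted p = 0.0302), a call lost without small intestinal CD31- Rspo3+ library 1, 2 or 3 or small intestinal CD31- Rspo3- library 1 or 2 (adjusted p from 0.0621 to 0.123). In colonic CD31+ cells the direction was opposite, with 0, 0.511 and 0 CPM in Rspo3+ libraries, against 6.19, 3.09 and 5.18 CPM in the Rspo3- libraries (log2 fold change -4.82 ± 0.77 SE, adjusted p = 9.23e-05). Small intestinal CD31+ cells held 0.593 to 1.06 CPM in Rspo3+ and 0.649 to 0.969 CPM in the Rspo3- libraries, which overlapped.

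Sox8 overlaps 2810468N07Rik on the opposite strand, which was counted at 103% of the mean CPM of Sox8 over all libraries. The library chemistry does not mark strand, so that reads of the overlap cannot be told apart and the Sox8 levels are uncertain. The antisense gene had 9.04 to 13.7 CPM in colonic CD31- Rspo3+ libraries, against 6.26 to 10.6 CPM in CD31- Rspo3- libraries, which overlapped. In small intestinal CD31- cells it had 10.2 to 17.5 CPM in Rspo3+ libraries, against 3.51 to 7.19 CPM in the Rspo3- libraries. In colonic CD31+ Rspo3- libraries it had 0.299 to 2.42 CPM and Sox8 had 3.09 to 6.19 CPM.

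Sox10 (ENSMUSG00000033006, chromosome 15, 79154908 to 79165240), the SOXE gene of enteric glia, was found in CD31- Rspo3- cells of both tissues. It had 1.17, 0.394 and 3.35 CPM in colonic CD31- Rspo3+ libraries, against 36.3, 24.9 and 12.7 CPM in CD31- Rspo3- libraries (log2 fold change -3.89 ± 0.64 SE, adjusted p = 0.000583). In small intestinal CD31- cells it had 0.242, 0.858 and 0.826 CPM in Rspo3+ libraries, against 20.5, 12.8 and 15.4 CPM in the Rspo3- libraries (log2 fold change -4.66 ± 0.67 SE, adjusted p = 2.91e-05). Every CD31- Rspo3- library lay above all other libraries, the highest of which was a colonic CD31+ Rspo3- library at 3.49 CPM. Between CD31+ and CD31- cells with no reporter, the log2 fold change was -3.34 ± 0.62 SE, adjusted p = 0.000338 in the colon and -3.70 ± 0.64 SE, adjusted p = 0.000109 in the small intestine.

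Glial markers moved with Sox10. Without Sox10 itself, 7 glial markers summed to 11, 7.48 and 35.3 CPM in colonic CD31- Rspo3+ libraries, against 298, 215 and 136 CPM in CD31- Rspo3- libraries. Their small intestinal CD31- sum was 6.99, 14.2 and 8.89 CPM in Rspo3+ libraries, against 211, 178 and 286 CPM in the Rspo3- libraries. No marker was at 0 in all libraries of those 4 groups. The part of the glial markers in the Sox10 difference was not tested. Sox2, which mouse glia share with stem cells of other tissues, had 0, 0 and 0.316 CPM in colonic CD31- Rspo3+ libraries, against 3.96, 2.75 and 2.58 CPM in CD31- Rspo3- libraries (adjusted p = 0.0455, lost without colonic CD31- Rspo3+ library 1 or 2 or colonic CD31- Rspo3- library 1, 2 or 3 (adjusted p from 0.0809 to 0.154) and when only the compared libraries entered the fit (adjusted p = 0.0707)). Small intestinal CD31- Rspo3+ libraries held no Sox2 count, against 0.248 to 0.973 CPM in CD31- Rspo3- libraries, and Sox2 was at least 15.8-fold lower, taking 3 counts in the whole group as the floor (adjusted p = 0.0104).

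The gut GATA genes were largely a property of small intestinal CD31- Rspo3- libraries. Gata4 (ENSMUSG00000021944, chromosome 14, 63198922 to 63271692), which gives the mouse jejunal epithelium its identity, had 0.0808, 1.82 and 1.41 CPM in small intestinal CD31- Rspo3+ libraries, against 41.4, 32.8 and 63.6 CPM in CD31- Rspo3- libraries (log2 fold change -5.39 ± 1.15 SE, adjusted p = 0.00134). The 12 colonic libraries held at most 0.495 CPM. Gata5 (ENSMUSG00000015627, chromosome 2, 180325133 to 180334699), a relative expressed in differentiated gut epithelium, had 0.323, 0.965 and 1.21 CPM in small intestinal CD31- Rspo3+ libraries, against 16.9, 14.1 and 36.5 CPM in CD31- Rspo3- libraries (log2 fold change -4.75 ± 0.93 SE, adjusted p = 0.000602). It reached at most 0.541 CPM in the colon. The Rspo3- libraries were higher in every case.

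Gata6 (ENSMUSG00000005836, chromosome 18, 11052064 to 11085635), which is active along the whole mouse intestine, was present in both tissues. Its levels in small intestinal CD31- cells were 0.525, 1.18 and 2.77 CPM in Rspo3+ libraries, against 22.2, 25.9 and 38.8 CPM in the Rspo3- libraries (log2 fold change -4.28 ± 0.71 SE, adjusted p = 0.000132). Small intestinal CD31+ cells had 0.688, 1.23 and 1.54 CPM in Rspo3+ libraries, against 13.8, 6.5 and 13.3 CPM in the Rspo3- libraries (log2 fold change -3.31 ± 0.70 SE, adjusted p = 0.00163). Rspo3+ and Rspo3- libraries did not overlap in either fraction. Colonic CD31- libraries overlapped, at 1.76, 1.12 and 8.6 CPM in Rspo3+ and 6.25, 3.45 and 3.82 CPM in Rspo3- cells, and the 8.60 CPM came from the library with the high leukocyte sum, which also held an epithelial sum of 1574 CPM. The colonic CD31+ difference did not pass (log2 fold change -1.19 ± 0.64 SE, adjusted p = 0.197). The antisense gene 1010001N08Rik of Gata6 was counted at 9.31% of the mean CPM of Gata6 over all libraries. It had 2.77 to 5.87 CPM in small intestinal CD31- Rspo3- libraries, where Gata6 was highest, and at most 0.499 CPM in any other library. Reads of the overlap cannot be told apart here either.

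In comparison with the colon, small intestinal CD31- Rspo3- cells were the group where all 3 differed. Gata4 was at 0.165 ± 0.286 CPM in colonic and 45.9 ± 15.9 CPM in small intestinal CD31- Rspo3- cells (log2 fold change -8.28 ± 1.37 SE, adjusted p = 0.000249). Gata5 was at 0.0647 ± 0.0296 CPM in colonic and 22.5 ± 12.2 CPM in small intestinal cells (log2 fold change -8.33 ± 1.15 SE, adjusted p = 3.79e-05). Gata6 was at 4.51 ± 1.52 CPM in colonic and 29 ± 8.72 CPM in small intestinal cells (log2 fold change -2.69 ± 0.66 SE, adjusted p = 0.00682; SD, n = 3 each). All 3 were lower in each colonic library.

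Epithelial markers were highest in the same group, although the cells were sorted as Epcam-. The sum of 10 epithelial markers was 158, 231 and 364 CPM in small intestinal CD31- Rspo3+ libraries, against 8461, 9153 and 14289 CPM in CD31- Rspo3- libraries. In colonic CD31- Rspo3- libraries it was 4101, 1203 and 2713 CPM, with Gata4 and Gata5 under 1 CPM. Mesothelial markers, a list of 5, summed to 1.01 to 19.2 CPM in small intestinal CD31- Rspo3+ libraries, against 243 to 507 CPM in CD31- Rspo3- libraries, and to 263 to 1101 CPM in colonic CD31- Rspo3- libraries. In small intestinal CD31- Rspo3+ cells, 2 of these 5 were at 0 in all libraries and 4 had a mean under 1 CPM. In CD31- Rspo3- cells none was at 0 in all libraries, and 1 had a mean under 1 CPM in each tissue. None of the 10 epithelial markers was at 0 in all libraries of any group. The part of these cells in the GATA levels was not tested.

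**Figure D5:**
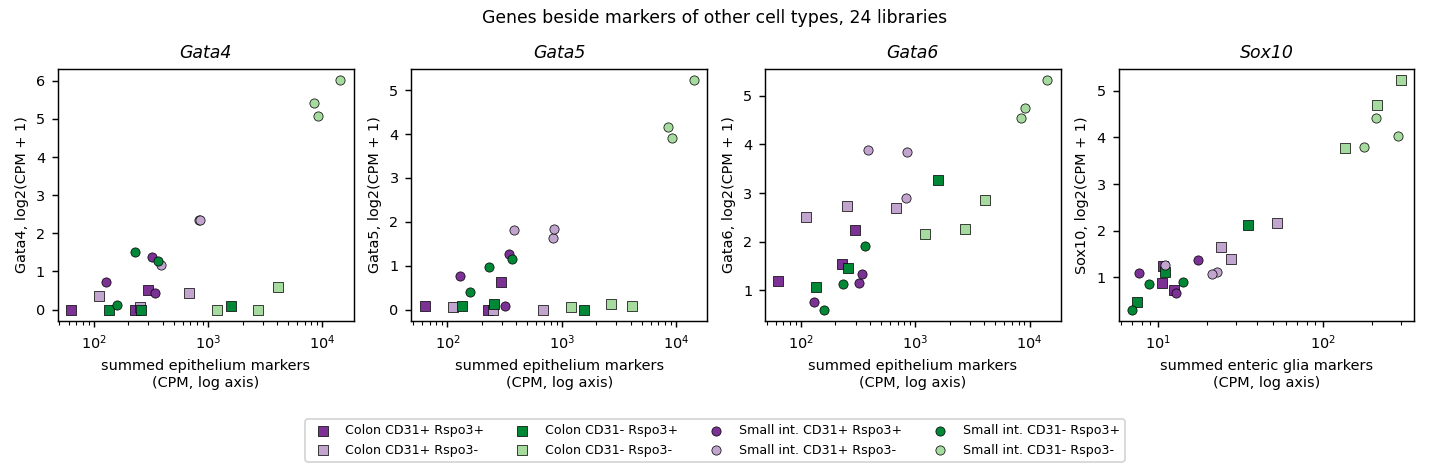
Log2(CPM + 1) of Gata4, Gata5, Gata6 and Sox10 (y axes) against the summed CPM of 10 epithelial or 7 enteric glial markers (x axes, log scale), 1 point per library, squares for colon and circles for small intestine. The 3 small intestinal CD31- Rspo3- libraries lie at the upper right for the GATA genes, and the 6 CD31- Rspo3- libraries of both tissues for Sox10.

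Sox4 (ENSMUSG00000076431, chromosome 13, 28948919 to 28953713), a SOXC gene of progenitors and many other cells, was present in every library, at 49.6 CPM or more. It had 75.7, 55.5 and 49.6 CPM in colonic CD31- Rspo3+ libraries, against 141, 140.0 and 155 CPM in CD31- Rspo3- libraries (log2 fold change -1.27 ± 0.19 SE, adjusted p = 0.000205). Those in the small intestine had 54.4, 63.2 and 72.1 CPM in Rspo3+ libraries, against 95.4, 89.98 and 88.8 CPM in the Rspo3- libraries (log2 fold change -0.53 ± 0.18 SE, adjusted p = 0.0333), a call lost without small intestinal CD31- Rspo3+ library 1 or small intestinal CD31- Rspo3- library 1 or 3 (adjusted p from 0.0555 to 0.138). The Rspo3+ libraries were lower in both tissues, without overlap. In colonic CD31+ cells Sox4 had 139, 129 and 102 CPM in Rspo3+ libraries, against 209.9, 129 and 164 CPM in the Rspo3- libraries, which overlapped (log2 fold change -0.44 ± 0.18 SE, adjusted p = 0.0900). That difference passed without colonic CD31+ Rspo3- library 2 (adjusted p = 0.0447). In small intestinal CD31+ cells it had 164, 123 and 158 CPM in Rspo3+ libraries, against 95.8, 77.9 and 95 CPM in the Rspo3- libraries (log2 fold change 0.73 ± 0.18 SE, adjusted p = 0.00696), without overlap. The Rspo3 difference itself differed between tissues in CD31+ cells (interaction -1.17 ± 0.26 SE, adjusted p = 0.0195), a call lost without colonic CD31+ Rspo3+ library 3 or colonic CD31+ Rspo3- library 1 or small intestinal CD31+ Rspo3+ library 1 or small intestinal CD31+ Rspo3- library 2 (adjusted p from 0.0590 to 0.0833) and when only the compared libraries entered the fit (adjusted p = 0.0673). Among Rspo3+ cells, Sox4 was higher in CD31+ than in CD31- libraries of the colon (log2 fold change 1.04 ± 0.18 SE, adjusted p = 0.000185) and of the small intestine (with a log2 fold change of 1.23 ± 0.19 SE, adjusted p = 2.1e-05).

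Fewer of the 25 genes were called between colon and small intestine than between Rspo3 or CD31 fractions. Of the 25 genes, CD31+ Rspo3+ cells gave 1 of 25 higher (2.83% of all genes) and 0 of 25 lower (3.52% of all genes) in the colon. CD31+ Rspo3- cells gave 2 of 25 higher (2.72% of all genes) and 2 of 25 lower (1.71% of all genes). CD31- Rspo3+ cells gave 2 of 25 higher (3.62% of all genes) and 2 of 25 lower (3.4% of all genes), and CD31- Rspo3- cells 3 of 25 higher (8.79% of all genes) and 4 of 25 lower (8.81% of all genes). As shares of the 25 genes these were 0% to 16%, against 1.71% to 8.81% of all genes. Only the lower calls in CD31+ Rspo3+ cells had a share below that of all genes. In CD31+ Rspo3+ cells the only call was Sox9, at 9.22 ± 6.29 CPM in colonic and 2.52 ± 1.21 CPM in small intestinal cells (log2 fold change 1.88 ± 0.48 SE, adjusted p = 0.0217). The libraries overlapped, and the call was lost without colonic CD31+ Rspo3+ library 1 or small intestinal CD31+ Rspo3+ library 1 or 3 (adjusted p from 0.0680 to 0.156) and when only the compared libraries entered the fit (adjusted p = 0.124). Beside the 0 lower calls of edgeR, 7 genes had an unadjusted p under 0.05 in either direction, and DESeq2 called 3 higher and 1 lower.

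In CD31+ Rspo3- cells, Tbx1 was at 17.4 ± 4.27 CPM in colonic and 62.3 ± 24.5 CPM in small intestinal cells (log2 fold change -1.84 ± 0.42 SE, adjusted p = 0.0134), a call lost without colonic CD31+ Rspo3- library 3 or small intestinal CD31+ Rspo3- library 3 (adjusted p from 0.0581 to 0.0712). Sox4 was higher in the colonic than in the small intestinal cells of that fraction (log2 fold change 0.90 ± 0.18 SE, adjusted p = 0.00656), a call lost when only the compared libraries entered the fit (adjusted p = 0.0823). Sox8 was at 4.82 ± 1.58 CPM in colonic and 0.827 ± 0.163 CPM in small intestinal cells (log2 fold change 2.54 ± 0.66 SE, adjusted p = 0.0312), a call lost without colonic CD31+ Rspo3- library 1 or 3 or small intestinal CD31+ Rspo3- library 1, 2 or 3 (adjusted p from 0.0710 to 0.0919), when only the compared libraries entered the fit (adjusted p = 0.0623) and without both colon libraries that stand apart (adjusted p = 0.0559). Gata5 had 1 count over the 3 colonic libraries, and its ratio of small intestinal to colonic mean was 153 with a 95% counting interval of 26.9 to 6108 (adjusted p = 0.00283). The order of the libraries was clear for all 4 genes, since none overlapped.

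In CD31- Rspo3+ cells all 4 calls depended on single libraries. Sox7 was at 10.4 ± 5.93 CPM in colonic and 4.32 ± 1.26 CPM in small intestinal cells (log2 fold change 1.27 ± 0.38 SE, adjusted p = 0.0484), and its call was lost without colonic CD31- Rspo3+ library 1 or 3 or small intestinal CD31- Rspo3+ library 1, 2 or 3 (adjusted p from 0.0638 to 0.330), when only the compared libraries entered the fit (adjusted p = 0.201) and without both colon libraries that stand apart (adjusted p = 0.326). Gata2 was higher in the colon (log2 fold change 1.40 ± 0.41 SE, adjusted p = 0.0437), a call lost without colonic CD31- Rspo3+ library 3 or small intestinal CD31- Rspo3+ library 1 or 2 (adjusted p from 0.0609 to 0.247), when only the compared libraries entered the fit (adjusted p = 0.235) and without both colon libraries that stand apart (adjusted p = 0.233). Tbx1 was at 0.718 ± 0.278 CPM in colonic and 3.12 ± 1.13 CPM in small intestinal cells (log2 fold change -2.09 ± 0.55 SE, adjusted p = 0.0232), a call lost without colonic CD31- Rspo3+ library 1 or 2 or small intestinal CD31- Rspo3+ library 1 or 2 (adjusted p from 0.0522 to 0.109) and when only the compared libraries entered the fit (adjusted p = 0.0803). Tbx2 was at 6.53 ± 2.43 CPM in colonic and 15.4 ± 2.48 CPM in small intestinal cells (log2 fold change -1.23 ± 0.30 SE, adjusted p = 0.0168), a call lost without colonic CD31- Rspo3+ library 1 or 2 or small intestinal CD31- Rspo3+ library 1 or 2 (adjusted p from 0.0584 to 0.0925) and when only the compared libraries entered the fit (adjusted p = 0.0969).

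In CD31- Rspo3- cells, the calls beside the GATA genes of the gut were Sox7, Sox18, Sox4 and Gata2. Sox7 was at 2.13 ± 0.384 CPM in colonic and 0.146 ± 0.139 CPM in small intestinal cells (log2 fold change 3.54 ± 0.57 SE, adjusted p = 0.000184). Sox18 was at 0.817 ± 0.623 CPM in colonic and 0.0901 ± 0.156 CPM in small intestinal cells (log2 fold change 3.17 ± 0.86 SE, adjusted p = 0.0134), a call lost without colonic CD31- Rspo3- library 3 or small intestinal CD31- Rspo3- library 1 (adjusted p from 0.0909 to 0.103) and when only the compared libraries entered the fit (adjusted p = 0.151). Sox4 was at 145 ± 8.5 CPM in colonic and 91.4 ± 3.51 CPM in small intestinal cells (log2 fold change 0.67 ± 0.18 SE, adjusted p = 0.0148), a call lost without colonic CD31- Rspo3- library 3 or small intestinal CD31- Rspo3- library 2 or 3 (adjusted p from 0.0506 to 0.0663). Gata2 was below 1.6 CPM in each of these libraries, which overlapped (log2 fold change -1.84 ± 0.54 SE, adjusted p = 0.0216), and its call was lost without colonic CD31- Rspo3- library 2 or 3 or small intestinal CD31- Rspo3- library 3 (adjusted p from 0.0961 to 0.157) and when only the compared libraries entered the fit (adjusted p = 0.175). The pan-endothelial sum in this fraction was 73.7 to 108 CPM in colonic, against 39.9 to 43.8 CPM in small intestinal libraries. Of its 7 markers, 2 had a mean under 1 CPM in each tissue. Pecam1, a marker of that list, was not higher in the colon, at 8.18 to 12.6 CPM, against 10.7 to 16.3 CPM in the small intestine. The part of the pan-endothelial sum in the Sox7 and Sox18 differences was not tested.

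Whether the Rspo3 difference itself depended on tissue was tested as an interaction. Among CD31+ cells, 0 of 25 higher (0.64% of all genes) and 2 of 25 lower (1.29% of all genes) were called by edgeR, the lower being Sox4 and Sox8, while 7 of the 25 genes had an unadjusted p under 0.05 and DESeq2 called 3. Among CD31- cells, 2 of 25 higher (4.91% of all genes) and 1 of 25 lower (3.48% of all genes) were called, which were Gata2 and Gata6, and Tbx2.

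The remaining 7 tested genes, Sox2 included, had low levels, and those with values here were named after their values were seen. Sox12, a SOXC gene, reached 5.44 to 6.49 CPM in colonic CD31- Rspo3- libraries, its highest group, and was called in no pairwise comparison. Sox11, a SOXC gene of neural progenitors, had 0.180, 0 and 0.217 CPM in colonic CD31+ Rspo3+ libraries, against 0.917 to 1.90 CPM in CD31+ Rspo3- libraries (log2 fold change -3.28 ± 0.89 SE, adjusted p = 0.0108, lost when only the compared libraries entered the fit (adjusted p = 0.0529)). Gata3, a factor of T cells and innate lymphoid cells, had no count in small intestinal CD31+ Rspo3+ libraries, against 0.0590 to 1.21 CPM in CD31+ Rspo3- libraries (adjusted p = 0.0304, lost without small intestinal CD31+ Rspo3+ library 1, 2 or 3 or small intestinal CD31+ Rspo3- library 2 or 3 (adjusted p from 0.0605 to 0.101) and when only the compared libraries entered the fit (adjusted p = 0.0870)). Tbx21, which directs type 1 lymphocyte responses, was highest at 3.16 CPM and Gata3 at 4.24 CPM, both in the colonic CD31- Rspo3+ library with the high leukocyte sum. Sox21 and Tbx6 did not exceed 1.83 and 2.57 CPM in any library.

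The 13 genes below the filter on low counts were Gata1, Sox1, Sox3, Sox14, Sox15, Sox30, Tbx5, Tbx10, Tbx15, Tbx18, Tbx19, Tbx20 and Tbx22. They reached at most 0.830 CPM in a library, and Tbx22 had no count in any. Tbx18 and Tbx20, known from mural cells and heart, and Gata1, the GATA factor of erythroid cells and megakaryocytes, were among them. Such levels do not show that the genes were absent from single cells.

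Other regulators of the same cells were counted beside these families. Of 23 tested endothelial transcription factors outside the rule, 18 were higher in CD31+ cells among colonic Rspo3+ cells (14.9% of all genes) and 22 among colonic Rspo3- cells (16.1% of all genes), where 1 was lower (16.4% of all genes). In the small intestine 21 were higher among Rspo3+ cells (16.9% of all genes) and 21 among Rspo3- cells (20.1% of all genes). Between Rspo3+ and Rspo3- cells of the CD31+ fraction the list divided, with 7 higher and 8 lower in the colon (9.52% and 13.6% of all genes) and 7 higher and 5 lower in the small intestine (9.23% and 10.8% of all genes). Prox1, the lymphatic regulator downstream of Sox18 in mouse embryos, was higher in colonic CD31+ Rspo3+ cells (log2 fold change 3.56 ± 0.40 SE, adjusted p = 1.63e-06) and in small intestinal CD31+ Rspo3+ cells (2.77 ± 0.39 SE, adjusted p = 2.55e-05, named after its values were seen). Tcf15 and Epas1, factors of blood vessels, were lower in the colon (-3.81 ± 0.29 and -3.03 ± 0.34) and in the small intestine (-2.33 ± 0.27 and -4.31 ± 0.36 SE).

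Of 8 tested GATA and T-box partners, 3 were higher and 1 lower in colonic and 2 higher in small intestinal CD31+ Rspo3+ cells, relative to CD31+ Rspo3- cells and beside the same shares of all genes. Zfpm2, a GATA cofactor, was higher in both, with a log2 fold change of 2.65 ± 0.34 SE (adjusted p = 7.14e-06) in the colon and 2.02 ± 0.33 SE (adjusted p = 0.000125) in the small intestine. Lmo2, which joins GATA proteins to Tal1, was higher in colonic CD31+ Rspo3+ cells (1.33 ± 0.24 SE, adjusted p = 0.00035), where Gata2 was lower. Of 24 tested mesenchymal and smooth muscle factors, 1 was higher and 11 lower in colonic and 3 higher and 7 lower in small intestinal CD31+ Rspo3+ cells, again beside 9.52% and 13.6% of all genes in the colon and 9.23% and 10.8% in the small intestine. Nkx2-3, which mice need for gut and spleen vessels, had a log2 fold change of -4.49 ± 0.21 SE in the colon and -4.44 ± 0.21 SE in the small intestine (adjusted p = 7.09e-11 and 6.12e-11). In CD31- cells the mesenchymal list gave 4 higher and 5 lower in the colon (4.8% and 4.34% of all genes) and 5 higher and 5 lower in the small intestine (16.1% and 14.3% of all genes). Of 7 tested enteric neural crest factors, 2 were lower in CD31- Rspo3+ cells of each tissue (4.34% of all genes in the colon and 14.3% in the small intestine). Foxd3, a partner of Sox10 in neural crest, was lower in the colon (-4.06 ± 1.06 SE, adjusted p = 0.0192) and in the small intestine (-6.10 ± 1.25 SE, adjusted p = 0.000896). These lists show how many regulators moved beside the SOX, T-box and GATA genes and were not tested as sets.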

How the data were processed

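RNA of sorted stromal cells was extracted with Qiagen RNeasy columns and made into libraries with SMART-Seq v4, per the labels' protocols, a chemistry that covers whole transcripts and keeps no strand. Estimated counts were deposited as whole numbers for each gene. Salmon 1.3.0, R 4.0.1 and genome build mm10 are named in the submitters' processing notes, while the annotation and the summing of transcripts to genes are not stated there. The authors also deposited log2(TPM + 1) values, which were turned back into TPM to compare genes with each other.

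Groups follow the labels, and columns were matched to groups by tissue, CD31 and Rspo3 sign. Of 54418 gene IDs, 54166 (99.5%) had a symbol in GENCODE M21. Genes were kept with edgeR 4.0.16's filterByExpr (minimum count 10, minimum total 15), scaled by TMM, and tested with glmQLFit and glmQLFTest (R 4.3.3, limma 3.58.1) in a fit of all 24 libraries with a coefficient per group, with Benjamini-Hochberg adjustment over all 19050 genes. The common biological coefficient of variation was 0.429. The interactions were contrasts of the same fit. The fit was tested on simulated data. CPM use TMM-scaled library sizes. Counting intervals are exact at 95%, and the floor for groups without a count is 3 counts. Both cover counting error only.

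Alternatives were DESeq2 1.42.0, its size factors in the edgeR fit, no filter (38991 genes), a fit of only the libraries compared, and leaving out each library. A fit without both colon libraries that stand apart was added after seeing the data. Values by library are given for members that were tested, were called in at least 1 pairwise comparison and had a mean of 5 CPM or more in their highest group. Members of other lists are named by their adjusted p. The members and lists were chosen with earlier results of these data known. Promoter sequences are from RefSeq (GRCm38.p6), where 9 of the 18 genes given by library had an entry.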

Additional observations from a re-analysis of the deposited data

Results flagged for a closer look

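For 5 of the SOX, T-box and GATA genes, the Rspo3 difference in the colon and that in the small intestine differed from each other by edgeR's interaction test. Values are the colonic minus the small intestinal log2 difference between Rspo3+ and Rspo3- cells.

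Among CD31+ cells, the value was -4.80 ± 1.01 SE, adjusted p = 0.0132 for Sox8, which was lower in Rspo3+ cells of the colon (-4.82 ± 0.77 SE, adjusted p = 9.23e-05) and overlapped between fractions in the small intestine. That call was lost when only the compared libraries entered the fit (adjusted p = 0.145), and the Sox8 levels share reads with an antisense gene. For Sox4 it was -1.17 ± 0.26 SE, adjusted p = 0.0195, with log2 differences of -0.44 ± 0.18 SE, adjusted p = 0.0900 in the colon and 0.73 ± 0.18 SE, adjusted p = 0.00696 in the small intestine, and the call was lost without colonic CD31+ Rspo3+ library 3 or colonic CD31+ Rspo3- library 1 or small intestinal CD31+ Rspo3+ library 1 or small intestinal CD31+ Rspo3- library 2 (adjusted p from 0.0590 to 0.0833) and when only the compared libraries entered the fit (adjusted p = 0.0673).

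Among CD31- cells, the value was 3.24 ± 0.68 SE, adjusted p = 0.00505 for Gata2, which was higher in Rspo3+ cells of the colon, by 3.55 ± 0.50 SE, adjusted p = 0.000128, and overlapped in the small intestine. Its call was lost when only the compared libraries entered the fit (adjusted p = 0.0718). For Gata6 it was 4.06 ± 0.92 SE, adjusted p = 0.00886, with a small intestinal difference of -4.28 ± 0.71 SE, adjusted p = 0.000132 and overlapping colonic libraries, and the call was lost without colonic CD31- Rspo3+ library 3 (adjusted p = 0.0517) and without both colon libraries that stand apart (adjusted p = 0.0576). Tbx2 was lower in Rspo3+ cells of both tissues, by more in the colon, with an interaction of -1.53 ± 0.42 SE, adjusted p = 0.0277. That call was lost without colonic CD31- Rspo3+ library 1 or 2 or colonic CD31- Rspo3- library 2 or 3 or small intestinal CD31- Rspo3+ library 1, 2 or 3 or small intestinal CD31- Rspo3- library 2 or 3 (adjusted p from 0.0589 to 0.114).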

How the results depend on the processing

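Counts of calls are given first for the SOX, T-box and GATA genes, with all genes tested where their count also moved by over 1.5 times. With DESeq2 in place of edgeR, the tissue comparison gave 4 against 1 among CD31+ Rspo3+ cells (1816 against 1209 of all genes) and 7 against 4 among CD31- Rspo3+ cells (2077 against 1337 of all genes). DESeq2 also called 1531 against 844 of all genes by tissue among CD31+ Rspo3- cells. The tissue by Rspo3 interaction gave 5 against 3 among CD31- cells and 809 against 367 of all genes among CD31+ cells. Without a filter on low counts, the CD31+ Rspo3+ tissue count was 2. With only the compared libraries in the fit, the Rspo3 comparison of colonic CD31- cells gave 8 against 13 (969 against 1741 of all genes). The tissue counts were then 2 in CD31+ Rspo3+ cells, 2 in CD31+ Rspo3- cells (295 of all genes) and 1 in CD31- Rspo3+ cells. The CD31+ interaction then gave 0 calls by edgeR, where 8 genes had an unadjusted p under 0.05.

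Leaving out each library in turn gave tissue counts of 0 to 3 in CD31+ Rspo3+ cells (768 to 923 of all genes), 2 to 4 in CD31+ Rspo3- cells (536 to 815), 0 to 3 in CD31- Rspo3+ cells (745 to 1414) and 4 to 7 in CD31- Rspo3- cells (2003 to 2880). edgeR called 0 of the CD31+ Rspo3+ cells' genes without colonic library 1 (7 at an unadjusted p under 0.05) or small intestinal library 1 (6) or 3 (7), and 3 without colonic library 2. It called 0 in CD31- Rspo3+ cells without small intestinal library 2 (11 at an unadjusted p under 0.05), 1 without colonic library 1, and 2 without colonic library 3 or small intestinal library 1. In CD31+ Rspo3- cells it called 2 without colonic or small intestinal library 3, and in CD31- Rspo3- cells 4 without colonic library 3. The interaction calls were 1 to 2 in CD31+ cells (236 to 381 of all genes), with 1 without colonic Rspo3+ library 3, colonic Rspo3- library 1, small intestinal Rspo3+ library 1 or small intestinal Rspo3- library 2. Over all genes, the CD31- interaction gave 862 to 1852 calls and the colonic CD31- Rspo3 comparison 1086 to 2331. The causes of these shifts were not tested.

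Of 143 log2 fold changes of named genes, 1 turned its direction, that of Sox18 between small intestinal CD31+ Rspo3+ and Rspo3- cells, which ran from -0.59 without Rspo3- library 2 to 0.025 without Rspo3- library 3. The direction and the side of the threshold held for 140 with DESeq2, 142 with DESeq2's size factors, 140 without the filter, and 104 of the 131 that could be refitted on the compared libraries alone, where 24 lost the call. They held for 68 of the 76 refitted without both colon libraries that stand apart, an alternative chosen after seeing the data. Leaving out a library kept both in 975 refits, lost the call in 124 and gained it in 4. No paired analysis was possible because the columns of counts carry no replicate number that could be matched between groups. The 13 members below the filter on low counts, at most 0.830 CPM in a library, entered no fit but the one without a filter, and depth limits what can be said of them.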
